A study of Schizosaccharomyces pombe with 6 samples.

Results

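The genes described here are the protein-coding genes that flank the 3 centromeres of fission yeast (Schizosaccharomyces pombe). Each centromere lies in a stretch without protein-coding genes, called the gap here, which is 39.2 kb long on chromosome I, 51.5 kb on chromosome II and 78.2 kb on chromosome III. A gene was taken as a member when its midpoint lay within 100 kb outside a gap. This gave 267 counted identifiers of 266 genes (meu1 has a pair), out of 7269 counted features and 5107 coding ones. There were 42 members on the left and 50 on the right of centromere I, 46 on each side of centromere II, and 40 on the left and 43 on the right of centromere III. By distance, 80 lay 0-25 kb from the gap, 60 lay 25-50 kb and 127 lay 50-100 kb from it.

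The study asked how the declustering of centromeres affects gene expression in growing cells. The mutant lacks csi1 and carries an allele of sad1 named sad1.2 (sad1.2 csi1Δ), and it was set against wt, with 3 libraries of each genotype. All cells were vegetative haploids from asynchronous cultures in rich medium at 30 °C, taken in exponential growth at an optical density of 0.5. The labels call the libraries biological replicates and name no other allele in either genotype. How many clones were used is not given in the sources used here, and centromere positions were not analysed here.

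In interphase fission yeast cells, the centromeres sit together at the nuclear envelope beneath the spindle pole body. Sad1 is a SUN-domain protein of the inner nuclear membrane at that place, and Csi1 links the centromeres to it. The repeats at each centromere are packed in heterochromatin, a silent form of chromatin marked by methylated histone H3, and transfer RNA genes act as borders between it and the transcribed genes outside.

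Total counts per library ran from 19074531 to 19951875. The csi1 counts of 210, 204 and 63 in the mutant libraries stood against 1271, 1142 and 1225 in wt, so that every mutant library lay below every wt library (log2 fold change −3.08, SE 0.382, edgeR adjusted p = 0.0188). Other counted features overlap 50.7% of csi1. Transcripts of sad1 stood at 153 ± 6.81 CPM in the mutant and 81.8 ± 1.66 CPM in wt (SD, n = 3 each; log2 fold change 0.90, SE 0.0728, edgeR adjusted p = 0.00639), where CPM are counts scaled to library size. Replicate 2 of wt and replicate 3 of the mutant stood apart from the other libraries of their genotype: chi-square statistics of the counts, per degree of freedom, were 9.96 between wt replicates 1 and 3, but 109 or more in each wt pair that holds replicate 2. Among the mutant pairs they were 44.8 between replicates 1 and 2 and 71.1 or more in each pair that holds replicate 3. These are bulk RNA measurements, in which fewer cells of a kind and less RNA per cell cannot be told apart.

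Not every member could be measured. Of the 267, 30 were listed at 0 in all 6 libraries, 9 had too few counts to be tested and 228 were tested. Those listed at 0 include genes that growing cells use, such as rpl1002, for a protein of the large ribosomal subunit, cdc28, an RNA helicase of splicing, hsp10, a mitochondrial chaperonin, and lys1, a lysine synthesis enzyme. The zero values followed the overlap of annotated features. Of 35 members with 90% or more of their length inside another counted feature, 24 were listed at 0 (68.6%), against 1 of 110 with a smaller overlap and 5 of 122 with none. The 5 without overlap were spc34, a subunit of the kinetochore DASH complex, rec6, a meiotic recombination gene, ura6, a pyrimidine kinase gene, fra3 and SPAC4H3.17. Over all coding genes, 450 of 618 with 90% or more overlap were listed at 0 (72.8%). Hence a member listed at 0 is one without counts in these files, and its expression was not measured here. The strand setting of the counting is not given in the sources used here, so for the 131 members that overlap a feature on the opposite strand, reads of the gene and of its antisense partner cannot be told apart.

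**Figure D1:**
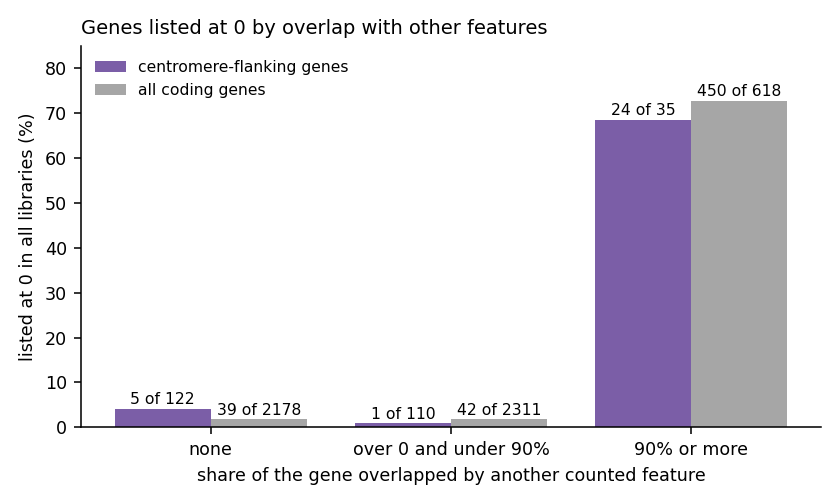
Share of genes listed at 0 in all 6 libraries (bars, in percent, from 0) by how much of the gene another counted feature overlaps, for the centromere-flanking genes (purple) and all coding genes (grey). Among genes with 90% or more overlap the bars stand at 68.6% and 72.8%, and elsewhere both stay under 5%.

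Of the 228 tested members, 2 rose and 0 fell in the mutant at an edgeR adjusted p under 0.05. That is 0.877% of them, where 2.41% of all 4941 tested features and 1.77% of the 4352 tested coding genes passed. By direction, 2.29% of all features were higher and 0.121% lower, and 1.65% of coding genes were higher and 0.115% lower. At an unadjusted p under 0.05, 22 members were higher and 31 lower in the mutant, beside 14.5% and 8.12% of all features and 11.2% and 9.01% of coding genes. The 2 calls rest on most of the libraries: without mutant replicate 1, mutant replicate 2, wt replicate 1 or wt replicate 3, edgeR called 0 members higher and 0 lower, and over all features it called 17, 0, 0 and 0 (at an unadjusted p under 0.05, 13, 20, 19 and 14 members were then higher and 19, 25, 18 and 10 lower). Without mutant replicate 3 or without wt replicate 2 it called 3 members higher, where 2.91% and 1.65% of all features were called higher and 3.01% and 1.75% in either direction. Without both of these libraries it called 20 members higher and 16 lower (of 230 tested), where 14.3% of all features were called higher and 6.17% lower, 20.5% in all. DESeq2 on all 6 libraries called 8 of the 228 members higher and 10 lower (7.89% in all), beside 7.14% of all features higher and 2.95% lower, 10.1% in all. The limma voom test called 2 members higher and 0 lower (21 and 30 at an unadjusted p under 0.05), beside 1.6% and 0.0607% of all features.

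The first of the 2 was SPAC4H3.08, annotated as a 3-hydroxyacyl-CoA dehydrogenase, 51.4 kb to the right of centromere I. It stood at 66.4, 58.3 and 44.8 CPM in the mutant libraries, against 26.7, 25.6 and 25.1 CPM in wt. The wt libraries lay close together and all 3 mutant libraries lay above them, the lowest being mutant replicate 3. Its edgeR estimate was a log2 fold change of 1.13 with an SE of 0.154 and an adjusted p of 0.0234, and the adjusted p lay between 5.26e-08 and 0.139 over the alternatives. It overlaps no other counted feature. Its tested neighbour SPAC4H3.06, uncharacterized and 47.6 kb from the same gap, stood at 40.5, 46.5 and 49.4 CPM in the mutant and 56.4, 75.3 and 57.5 CPM in wt (log2 fold change −0.47, SE 0.145, edgeR adjusted p = 0.130). The groups did not overlap for either gene, and the signs were opposite. DESeq2 called SPAC4H3.06 lower (adjusted p = 0.0348), and other counted features cover 37.0% of this gene.

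The other was SPBC27.05, an uncharacterized gene 26.8 kb to the left of centromere II. It had 55.2, 43.4 and 37.7 CPM in the mutant libraries, against 19.6, 23.2 and 19.9 CPM in wt. Mutant replicate 1 was the highest, and every mutant library lay above every wt library. The edgeR estimate was a log2 fold change of 1.12 with an SE of 0.164 and an adjusted p of 0.0261, with adjusted p values between 2.60e-07 and 0.155 over the alternatives. On the same side, 28.8 kb from the gap, the septation gene uds1 had 4.37, 3.16 and 1.64 CPM in the mutant and 1.31, 0.514 and 1.97 CPM in wt, groups that overlapped (log2 fold change 1.26, SE 0.528, edgeR adjusted p = 0.217). Also on that side, 24.5 kb from the gap, sua1, the sulfate adenylyltransferase that begins sulfate assimilation, had 812, 934 and 1175 CPM in the mutant and 1111, 1646 and 1211 CPM in wt, which overlapped (log2 fold change −0.44, SE 0.196, edgeR adjusted p = 0.239). Other counted features cover 39.0% of sua1.

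The genes closest to the gaps did not pass. On the right of centromere II the nearest gene was yox1, 0.304 kb from the gap, which encodes a corepressor of the G1/S transcription complex MBF. It stood at 51.7, 51.2 and 65.5 CPM in the mutant libraries, against 31.0, 41.2 and 30.4 CPM in wt. Every mutant library lay above every wt library, and the nearest of these values were mutant replicate 2 and wt replicate 2. The log2 fold change of 0.71 (SE 0.163) had an edgeR adjusted p of 0.0671. It passed without wt replicate 2 (edgeR adjusted p = 0.0371) and without that library and mutant replicate 3 together (0.00228). Over all features 1.75% were called without wt replicate 2 and 20.5% without both. Since these libraries stood apart in the same counts, passes without them are no separate support. It also passed with library size as the only scaling (edgeR adjusted p = 0.0379) and with DESeq2 (0.00336), which called 10.1% of all features. The next gene on that side, rec6, was listed at 0.

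On the left of centromere II lay rpb1, which encodes the largest subunit of RNA polymerase II, 2.80 kb from the gap. It had 624, 693 and 759 CPM in the mutant and 670, 699 and 723 CPM in wt, and the wt values lay within the mutant range (log2 fold change −0.01, SE 0.103, edgeR adjusted p = 0.964). Next to it, 6.65 kb from the gap, hmo1, a gene for an upstream binding factor of RNA polymerase I, had 442, 501 and 707 CPM in the mutant and 465, 594 and 458 CPM in wt. Its groups overlapped too, with mutant replicate 3 highest (log2 fold change 0.12, SE 0.195, edgeR adjusted p = 0.764).

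Beside centromere I, the amino acid permease gene per1, 1.14 kb to the left, stood at 44.5, 34.5 and 30.5 CPM in the mutant and 39.5, 30.1 and 36.3 CPM in wt, and the groups overlapped (log2 fold change 0.05, SE 0.173, edgeR adjusted p = 0.905). On the right, 0.416 kb from the gap, emc5, named for the endoplasmic reticulum membrane complex, had 46.7, 46.1 and 46.7 CPM in the mutant and 50.4, 71.8 and 52.2 CPM in wt. All mutant values lay below all wt values, of which wt replicate 2 was far the highest (log2 fold change −0.32, SE 0.148, edgeR adjusted p = 0.252). The DNA repair gene rad50, 2.95 kb from the gap, had 28.4, 25.2 and 30.5 CPM in the mutant and 30.4, 29.7 and 27.6 CPM in wt (log2 fold change −0.06, SE 0.113, edgeR adjusted p = 0.794). Other counted features overlap 47.1% of rad50. The next gene on the left, rpl1002, was listed at 0.

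At centromere III, ppc1, the phosphopantothenate-cysteine ligase of coenzyme A synthesis, lay 0.809 kb to the right and had 9.81, 12.6 and 8.33 CPM in the mutant and 11.8, 14.6 and 13.9 CPM in wt. The groups overlapped at mutant replicate 2 and wt replicate 1 (log2 fold change −0.39, SE 0.190, edgeR adjusted p = 0.275). Behind it, cmc2, a gene of cytochrome c oxidase assembly, had only 28, 27 and 11 counts in the mutant, against 19, 20 and 23 in wt (log2 fold change −0.05, SE 0.380, edgeR adjusted p = 0.956). On the left, chk1, the kinase of the DNA damage checkpoint, lay 2.32 kb from the gap with 20.4, 15.4 and 16.7 CPM in the mutant and 19.8, 15.7 and 17.3 CPM in wt, so that its groups lay within the same range (log2 fold change −0.01, SE 0.157, edgeR adjusted p = 0.986). The nearest gene on that side, meu27, was listed at 0. For 57.9% of chk1 and 68.2% of ppc1, another feature overlaps the gene.

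**Figure D2:**
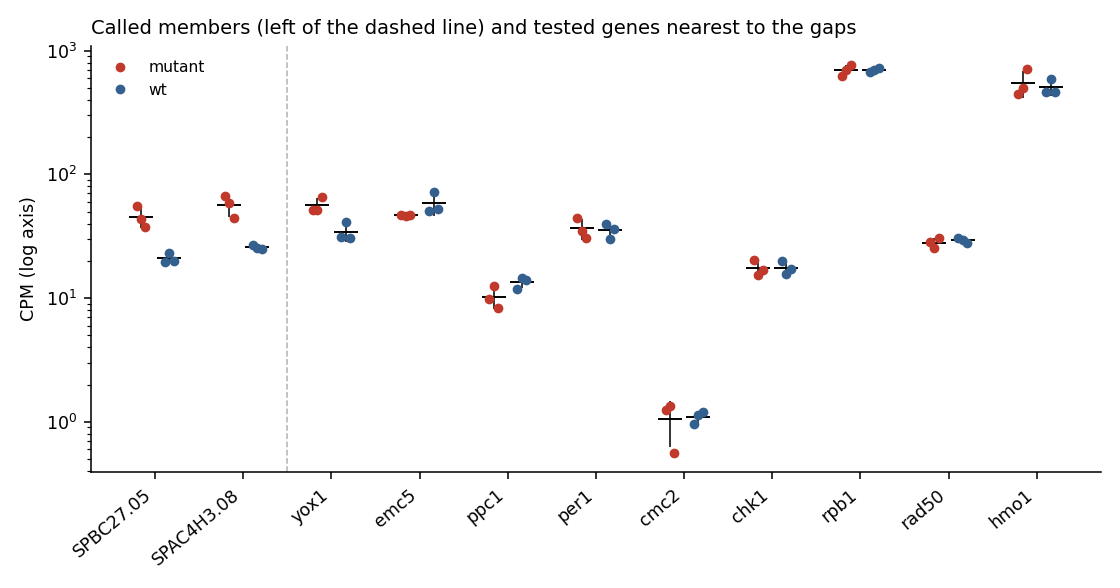
CPM in each library (points, log axis) for the 2 called genes and the 9 tested genes nearest to the gaps, with mutant values in red left of wt values in blue; the black dash and bar are mean ± SD over 3 libraries. For SPBC27.05, SPAC4H3.08 and yox1 all mutant points lie above all wt points, for emc5 all lie below, and for the other 7 the groups overlap.

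Counted over all tested members, every mutant library lay above every wt library in 24 (10.5%) and below in 47 (20.6%). Over all tested features the shares were 16.7% above and 13.8% below, and over coding genes 13.5% and 15.4%. With 3 libraries against 3, an exact permutation test of 1 gene cannot give a p under 0.1. The median log2 fold change was −0.06 over the members (89 positive, 139 negative), beside −0.02 over all tested coding genes (2003 positive, 2349 negative) and −0.03 over the 226 tested coding genes 100-200 kb from the same gaps, of which 1 was called. When libraries were scaled by total count alone, the median of all features shifted to 0.13, where the TMM scaling gives 0.00, and the member median became 0.06. Relative to the median of all features it was −0.07 with the TMM scaling and −0.06 with total counts alone.

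By centromere, the member medians were −0.06 at centromere I (76 tested), −0.07 at centromere II (79) and −0.05 at centromere III (73). The other coding genes had medians of −0.00 on chromosome I, −0.07 on chromosome II and 0.03 on chromosome III. The members of centromere II thus had the same median as the rest of their chromosome to the second decimal, and those of centromeres I and III lay below theirs. Whether the flanks differ from their chromosomes was not tested. By side, the medians ran from −0.12 (centromere I, right) to −0.02 (centromere I, left).

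**Figure D3:**
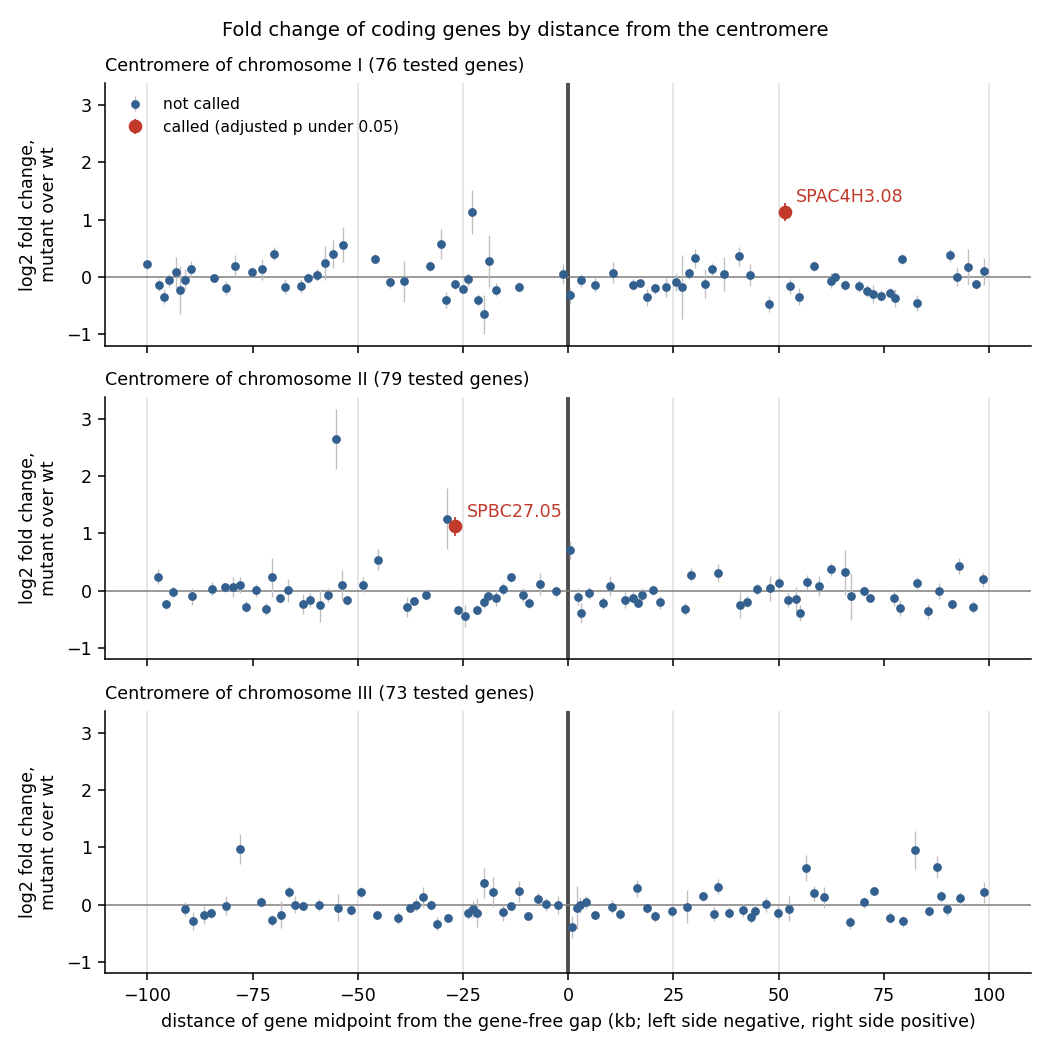
Log2 fold change, mutant over wt, of the 228 tested members against the distance of their midpoint from the gap (kb, left side negative), 1 panel per centromere; bars are ± SE and the red points are the 2 genes called at an adjusted p under 0.05. Points scatter around 0 at all distances, with SPAC4H3.08 and SPBC27.05 both outside 25 kb; the highest point, at 2.65, is the uncalled gene SPBC83.19c.

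By distance, 0 of 63 tested genes at 0-25 kb were called, 1 of 52 at 25-50 kb and 1 of 113 at 50-100 kb. At an unadjusted p under 0.05 edgeR had 3, 6 and 13 higher and 7, 9 and 15 lower. Over all features 14.5% were higher and 8.12% lower at that threshold. DESeq2 called 3, 7 and 8 in these classes in either direction, or 4.76%, 13.5% and 7.08%, beside 10.1% of all features. The median log2 fold changes were −0.10, −0.06 and −0.02 in that order. The order of the outer classes depended on the libraries: the medians were −0.11, −0.06 and −0.08 without mutant replicate 3 and −0.12, −0.03 and −0.04 without wt replicate 3, while without wt replicate 2 and mutant replicate 3 together they were −0.09, −0.08 and −0.04. The order also differed between the centromeres. By distance the medians were −0.14, −0.02 and −0.02 at centromere I (17, 18 and 41 tested genes), −0.10, 0.02 and −0.01 at centromere II (23, 15 and 41) and −0.05, −0.10 and −0.02 at centromere III (23, 19 and 31), so that the nearest class was the lowest at centromeres I and II but not at III. Relative to the median of all features they were −0.11, −0.07 and −0.02 with the TMM scaling and −0.10, −0.06 and −0.02 with total counts alone; with total counts alone the medians themselves were positive, at 0.03, 0.06 and 0.11. In the nearest class 17 genes had a positive and 46 a negative value. Over single genes, log2 fold change and distance had a Spearman correlation of 0.08 (n = 228 genes, which share the same 6 libraries).

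Relative to the wt mean, the 0-25 kb genes stood at a median log2 level of −0.15, −0.08 and −0.09 in the mutant libraries, against −0.02, 0.04 and −0.02 in wt. At 25-50 kb the mutant libraries had −0.03, −0.05 and −0.02, against −0.01, 0.01 and −0.01 in wt. Mutant replicate 1 was the lowest of the mutant libraries at 0-25 kb and mutant replicate 2 at 25-50 kb. In both classes all mutant libraries lay below all wt libraries, while at 50-100 kb the genotypes overlapped, with −0.04, −0.04 and 0.02 in the mutant, against −0.01, 0.01 and −0.02 in wt. Over all coding genes the medians also overlapped, at −0.02, −0.02 and 0.01 in the mutant, against −0.01, 0.01 and −0.00 in wt.

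**Figure D4:**
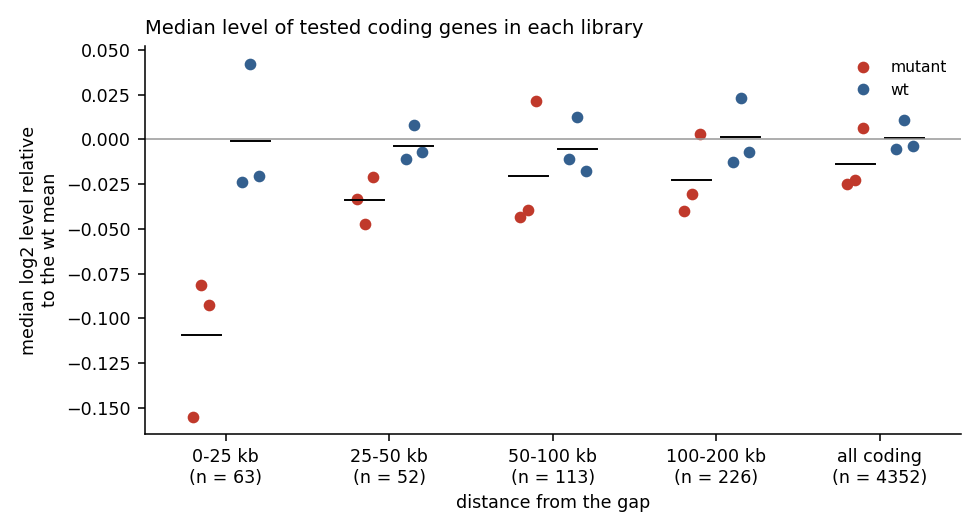
Median log2 level relative to the wt mean in each library (points; mutant red on the left, wt blue on the right; black lines are means over 3 libraries) for tested coding genes by distance from the gap, and for all coding genes. The 3 mutant points of the 0-25 kb class lie between −0.15 and −0.08, below its wt points and below the mutant points of the other classes.

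In 13 genes of the 0-25 kb class every mutant library lay below every wt library (20.6%), and in 3 above (4.76%). Over all features 13.8% lay below and 16.7% above. The share below was alike in the other classes, at 21.2% at 25-50 kb and 20.4% at 50-100 kb, where 11.5% and 13.3% lay above. Among the 13 were mid1, an anillin-related protein that positions the division ring, and naa10, the catalytic subunit of the N-terminal acetyltransferase NatA. The mid1 gene had 132, 127 and 127 CPM in the mutant and 146, 145 and 148 CPM in wt, tight and separate groups with a log2 fold change of −0.19 (edgeR adjusted p = 0.164). The naa10 gene had 93.5, 110 and 109 CPM in the mutant and 132, 153 and 129 CPM in wt (log2 fold change −0.40, SE 0.104, edgeR adjusted p = 0.0906). DESeq2 called naa10 lower (adjusted p = 0.0147), beside 10.1% of all features called. So did edgeR without wt replicate 2 and mutant replicate 3 together (0.0273), where 20.5% of all features were called. The other 11 of these genes had log2 fold changes with edgeR adjusted p values from 0.0859 (mep33) to 0.435 (pmm1). DESeq2 called mep33 lower (adjusted p = 0.0101).

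Fold changes over the whole table moved with abundance, and this touches the medians above. Across the 228 members the Spearman correlation of log2 fold change with mean CPM was −0.37, while mean CPM and distance correlated at 0.03. Members under 16 CPM had a median of 0.07 (31 genes), those of 16 to 64 CPM −0.03 (54), those of 64 to 256 CPM −0.06 (98) and those of 256 CPM or more −0.20 (45). In the same classes the coding genes outside the flanks had medians of 0.29, 0.05, −0.05 and −0.17. Members were lower in each class, by the largest step in the lowest one. For the 0-25 kb genes alone the class medians were 0.01 (10 genes), −0.03 (14), −0.11 (25) and −0.16 (14). The part of abundance in the order by distance was not tested.

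**Figure D5:**
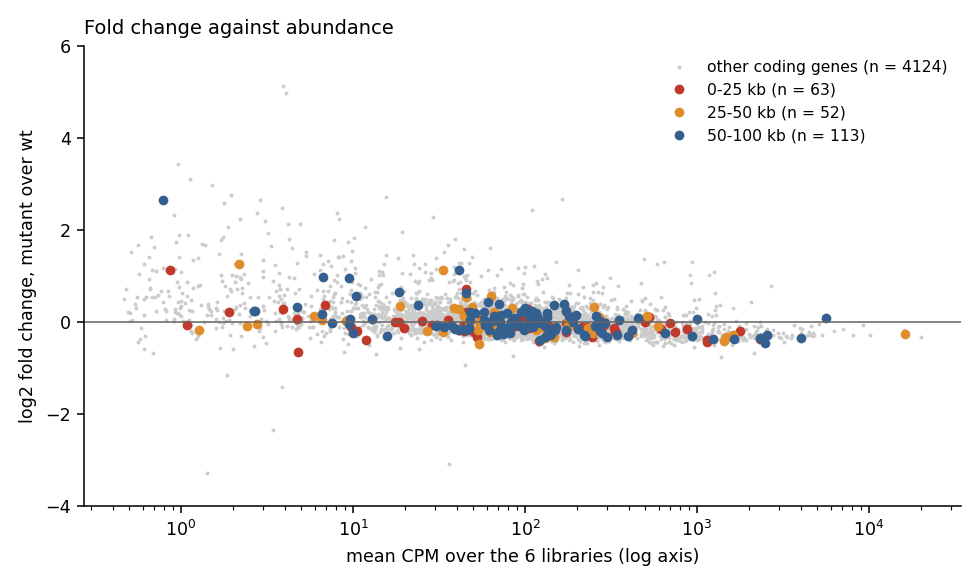
Log2 fold change, mutant over wt, against mean CPM over the 6 libraries (log axis) for tested members by distance class (red 0-25 kb, orange 25-50 kb, blue 50-100 kb) and the 4124 other tested coding genes (grey). Values above 1 occur mostly at low CPM, and genes above 1000 CPM lie mostly below 0.

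By the median of tested genes, levels per length were somewhat higher at 0-25 kb from the gaps. The median over tested members was 53.7 CPM per kb, against 45.4 for all tested coding genes and 47.1 for coding genes 100-200 kb from the gaps. It was 70.4 CPM per kb at 0-25 kb, 45.9 at 25-50 kb and 53.2 at 50-100 kb. By centromere it was 48.5 CPM per kb at I, 72.5 at II and 48.6 at III. The quartiles at 0-25 kb were 20.9 and 142 CPM per kb, against 22.0 and 97.3 over all tested coding genes. Members without opposite-strand overlap had a median of 66.7 CPM per kb and those with it 40.9. The length used was that of the whole gene, overlapped stretches included. How far overlap with other features lowers these levels was not tested. Together the members took 6.98, 7.34 and 7.70% of all counts in the mutant libraries, against 7.51, 7.97 and 7.59% in wt, and the groups overlapped. The most abundant per length were fba1, the aldolase of glycolysis, at 12705 CPM per kb, rpl26, for a ribosomal protein, at 3531, and tma19, the translationally controlled tumor protein, at 3313.

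The fba1 gene alone had 11219, 15162.5 and 18112 CPM in the mutant libraries and 15388, 20968 and 16653 CPM in wt. Mutant replicate 3 lay above 2 wt libraries, so the groups overlapped (log2 fold change −0.25, SE 0.224, edgeR adjusted p = 0.560). For tma19, which had 1757, 2106 and 2260 CPM in the mutant and 2393, 2950 and 2509 CPM in wt, they did not overlap (log2 fold change −0.36, SE 0.144, edgeR adjusted p = 0.203). The plasma membrane proton pump gene pma1, 82.9 kb to the right of centromere I, had 2076, 2279 and 1967 CPM in the mutant and 2638, 3360 and 2667 CPM in wt. All mutant values lay below all wt values, with wt replicate 2 highest (log2 fold change −0.46, SE 0.139, edgeR adjusted p = 0.130), and DESeq2 called it lower (adjusted p = 0.0104).

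Genes for cytosolic ribosomal proteins, the building blocks of the ribosome, lie on all 3 chromosomes near the centromeres. Of 11, 3 were listed at 0 and 8 were tested. All 8 had negative log2 fold changes under each of the 3 scalings, with medians of −0.35 with TMM, −0.36 with DESeq2 size factors and −0.23 with total counts alone, and 0 were called (4 at an unadjusted p under 0.05 with edgeR; DESeq2 called rpl42 and rps1802 lower). In 6 of the 8 (75%) every mutant library lay below every wt library, beside 13.8% of all features. The 105 tested ribosomal protein genes outside the flanks had a median of −0.32 with all values negative. In 58.1% of these 105 every mutant library lay below every wt library, and 38 were lower at an unadjusted p under 0.05 with edgeR. Of the members, rpl42 had 1126, 1450 and 1117 CPM in the mutant and 1745, 1490 and 1674 CPM in wt, separate groups (log2 fold change −0.41, SE 0.140, edgeR adjusted p = 0.154). For rpl26 the values were 1187, 1452 and 1741 CPM in the mutant and 1574, 2040 and 1711 CPM in wt, which overlapped (log2 fold change −0.28, SE 0.172, edgeR adjusted p = 0.381).

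Most of the tested mating and meiosis genes were on the other side of 0. Of 17 identifiers, 6 were listed at 0, 2 had too few counts and 9 were tested. Of these 7 had positive values with a median of 0.54, and edgeR called 0, while DESeq2 called map2. At an unadjusted p under 0.05 edgeR had 5 higher and 0 lower, where 14.5% and 8.12% of all features passed. Levels of the 9 tested genes were low: the median was 37.1 CPM, or 9.93 CPM per kb. Among coding genes outside the flanks, 77.1% under 16 CPM and 61.1% at 16 to 64 CPM had positive values. Their medians were 0.29 and 0.05, and whether the 9 genes differ from them was not tested. The P-factor pheromone gene map2 had 11.8, 8.32 and 6.39 CPM in the mutant libraries, against 3.98, 4.63 and 4.89 CPM in wt. All mutant values lay above all wt values (log2 fold change 0.97, SE 0.258, edgeR adjusted p = 0.0972). The meiotic cohesin gene rec11 had 17.8, 10.8 and 8.89 CPM in the mutant and 8.42, 4.46 and 6.55 CPM in wt, separate groups with a wide spread (log2 fold change 0.95, SE 0.332, edgeR adjusted p = 0.162).

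The gene moa1, whose product directs sister kinetochores to one pole in meiosis I, had 27, 17 and 29 counts in the mutant, against 9, 13 and 8 in wt, all mutant values being higher (log2 fold change 1.13, SE 0.378, edgeR adjusted p = 0.149). The kinase gene byr2 of the pheromone pathway had 74.7, 68.1 and 67.6 CPM in the mutant and 58.7, 41.9 and 54.9 CPM in wt, again without overlap (log2 fold change 0.44, SE 0.137, edgeR adjusted p = 0.136). For pat1, the kinase that holds meiosis back in growing cells, the values were 51.7, 35.3 and 41.1 CPM in the mutant and 35.5, 37.5 and 30.4 CPM in wt, and they overlapped (log2 fold change 0.31, SE 0.163, edgeR adjusted p = 0.311). The negative values were those of prm1 and mug129. The conjugation gene prm1, 11.6 kb to the left of centromere I, had 40.8, 37.9 and 37.5 CPM in the mutant and 46.3, 42.5 and 42.6 CPM in wt, with every mutant library below every wt library (log2 fold change −0.18, SE 0.0938, edgeR adjusted p = 0.317). Other counted features cover 63.4% of prm1.

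Of 7 tested spindle, kinetochore and mitosis genes edgeR and DESeq2 called 0. The median was 0.06, with 5 positive values (4 with DESeq2 size factors). At an unadjusted p under 0.05 edgeR had 1 of the 7 higher and 0 lower, where 14.5% and 8.12% of all features passed. The kinesin-8 gene klp5, whose motor limits microtubule growth, had 153, 152 and 196 CPM in the mutant and 127, 134 and 126 CPM in wt, every mutant library being higher (log2 fold change 0.38, SE 0.115, edgeR adjusted p = 0.129). The checkpoint gene mad3 had 69.8, 58.5 and 57.7 CPM in the mutant and 55.6, 50.8 and 52.7 CPM in wt, likewise without overlap (log2 fold change 0.22, SE 0.106, edgeR adjusted p = 0.262). The shugoshin gene sgo2 and the DASH complex gene spc34 were listed at 0.

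Among 15 cell cycle, replication and repair genes edgeR called 0, while DESeq2 called yox1 and rad54 higher. At an unadjusted p under 0.05 edgeR had 3 higher and 1 lower, where 14.5% and 8.12% of all features passed. The median of the 15 genes was −0.06 (5 positive, 10 negative). With total counts alone it was 0.06 (11 positive, 4 negative), below the shift of 0.13 over all features. The recombination gene rad54 had 86.0, 72.2 and 83.3 CPM in the mutant and 57.3, 68.0 and 57.3 CPM in wt, separate groups (log2 fold change 0.40, SE 0.110, edgeR adjusted p = 0.101). The gene dfp1, for the regulatory subunit of the replication kinase Hsk1, had 192, 186 and 187 CPM in the mutant and 165, 151 and 164 CPM in wt (log2 fold change 0.23, SE 0.0722, edgeR adjusted p = 0.132). In contrast cdc2, the main cell cycle kinase, had 76.7, 73.9 and 75.2 CPM in the mutant and 86.0, 95.5 and 84.4 CPM in wt, lower in every mutant library (log2 fold change −0.24, SE 0.0804, edgeR adjusted p = 0.155).

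The 11 tested chromatin and silencing genes had a median of −0.01, and the 12 tested genes of the transcription machinery one of −0.02. Each group had 0 edgeR calls, while DESeq2 called arp9 lower. At an unadjusted p under 0.05 edgeR had 0 higher and 3 lower in the first group, and 0 higher and 1 lower in the second. Over all features 14.5% were higher and 8.12% lower at that threshold. Both medians became positive with total counts alone, at 0.11 and 0.10, below the shift of 0.13 over all features. The remodelling gene arp9 had 117, 133 and 128 CPM in the mutant and 151, 153 and 154 CPM in wt, separate groups (log2 fold change −0.27, SE 0.077, edgeR adjusted p = 0.108). The gene tas3, for a subunit of the RNAi effector complex RITS, had 59.7, 58.9 and 58.3 CPM in the mutant and 56.4, 55.4 and 58.1 CPM in wt (log2 fold change 0.06, SE 0.0781, edgeR adjusted p = 0.712). Its lowest mutant value, of replicate 3, lay just above its highest wt value, also of replicate 3.

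Outside these roles, log2 fold changes of over 0.5 in size not given so far were those of gep4, for a phosphatase of cardiolipin synthesis, fah2, annotated as a fatty-acid amide hydrolase, grx2, a glutaredoxin gene, and the uncharacterized SPAC15E1.02c and SPBC83.19c. The gep4 gene had 28.3, 21.0 and 18.3 CPM in the mutant and 12.9, 16.6 and 13.6 CPM in wt, separate groups (log2 fold change 0.65, SE 0.196, edgeR adjusted p = 0.126). DESeq2 called gep4 higher (adjusted p = 0.0398). SPBC83.19c, uncharacterized and chosen after its values were seen, had 1.74, 1.40 and 0.920 CPM in the mutant and 0.252, 0.0572 and 0.312 CPM in wt (log2 fold change 2.65, SE 0.523, edgeR adjusted p = 0.0542). It passed without mutant replicate 3 (edgeR adjusted p = 0.0468), without that library and wt replicate 2 together (0.0102) and with DESeq2 (0.00368). In these settings 3.01%, 20.5% and 10.1% of all features were called. The lowest value of all tested members was that of grx2, in the nearest class on the left of centromere I, which had 3.75, 4.71 and 2.71 CPM in the mutant and 6.86, 3.54 and 7.17 CPM in wt. Its groups overlapped at wt replicate 2, and another feature overlaps 81.6% of the gene (log2 fold change −0.66, SE 0.335, edgeR adjusted p = 0.299). For fah2 the values were 68.5, 52.8 and 44.8 CPM in the mutant and 43.0, 25.8 and 37.7 CPM in wt, separate groups (log2 fold change 0.64, SE 0.228, edgeR adjusted p = 0.166). SPAC15E1.02c had 93.7, 84.4 and 49.9 CPM in the mutant and 61.1, 39.8 and 52.3 CPM in wt, which overlapped (log2 fold change 0.57, SE 0.256, edgeR adjusted p = 0.242). Without wt replicate 2 and mutant replicate 3 together, edgeR called gep4, fah2 and SPAC15E1.02c higher (adjusted p = 0.0124, 0.0280 and 0.00626). It then called grx2 lower (0.0447), where 20.5% of all features were called.

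Genes whose products act at the centromeres lie mostly elsewhere in the genome. Of 23 heterochromatin and RNAi genes 19 were tested and 0 were called by edgeR, and 16 had positive values, with a median of 0.17. At an unadjusted p under 0.05 edgeR had 4 higher and 1 lower, where 14.5% and 8.12% of all features passed. The higher ones were mit1 (log2 fold change 0.50, edgeR adjusted p = 0.0868), chp1 (0.44, 0.204), clr1 (0.23, 0.161) and ago1 (0.21, 0.198). The lower one was sir2 (−0.22, 0.185). The histone H3 methyltransferase gene clr4 averaged 24.5 ± 3.55 CPM in the mutant and 18.9 ± 6.69 CPM in wt (SD, n = 3 each; edgeR adjusted p = 0.474), and swi6, for the HP1 protein that binds the mark, averaged 156 ± 8.59 CPM in the mutant and 165 ± 5.27 CPM in wt (SD, n = 3 each; edgeR adjusted p = 0.586). Of 23 anchoring and centromere core genes, 20 were tested, with a median of 0.02 (12 positive, 8 negative). The edgeR calls were sad1, higher, and csi1, lower, the genes altered in the mutant. Over all features 2.29% were called higher and 0.121% lower. At an unadjusted p under 0.05 edgeR had 3 higher and 1 lower, where 14.5% and 8.12% of all features passed. Besides sad1 and csi1 these were spc7 (log2 fold change 0.45, edgeR adjusted p = 0.0600) and mis17 (0.39, 0.0972), both higher. The calls of sad1 and csi1 were both lost without mutant replicate 2 (edgeR adjusted p = 0.0641 for sad1 and 0.102 for csi1), without wt replicate 1 (0.0507 and 0.0759) and without wt replicate 3 (0.0663 and 0.0948). That of csi1 was also lost without mutant replicate 1 (0.0777). With single libraries left out the log2 fold change lay between 0.86 and 0.92 for sad1 and between −3.34 and −2.72 for csi1. The gene cnp1, for the centromeric histone H3 variant, averaged 11.8 ± 1.32 CPM in the mutant and 10.5 ± 0.187 CPM in wt (SD, n = 3 each; edgeR adjusted p = 0.527).

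Inside the gaps, 32 annotated non-coding RNA features held few counts. In sum they had 117, 129 and 108 counts in the mutant libraries, against 109, 107 and 113 in wt, from 18 features with any count. The ranges overlapped, and scaled to depth the sums were 5.22, 6.46 and 5.52 CPM in the mutant and 5.50, 6.12 and 5.87 CPM in wt. How reads that match several copies of a repeat were counted was not examined here. The sums are thus no measure of transcription from the repeats as a whole. The 55 transfer RNA features inside the gaps were all listed at 0 in these oligo-dT selected libraries. Of the 75 non-coding features within 100 kb of the gaps, 25 were tested and 0 were called (8 higher and 0 lower at an unadjusted p under 0.05), and 23 had positive values, with a median of 0.27. Elsewhere 38 of 495 tested non-coding features were called (7.68%), where 2.41% of all features were called. Of these 495, 198 were higher and 2 lower at an unadjusted p under 0.05, and the median was 0.53. Over all features 14.5% were higher and 8.12% lower at that threshold. Every mutant library lay above every wt library in 32% of the 25 and 42.4% of the 495, beside 16.7% of all features. It lay below in 0% and 0.606%, beside 13.8%. Whether the 25 differ from the 495 in calls or medians was not tested.

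The authors' deposited table of their own DESeq2 comparison gives an adjusted p for 238 members. At an adjusted p under 0.05, the authors' deposited table has 10 of them higher and 10 lower, 8.40% in all, where 8.84% of its 5474 features with an adjusted p pass. SPAC4H3.08, at a log2 fold change of 0.95, and SPBC27.05, at 0.93, have the smallest adjusted p values among the higher members of the authors' deposited table. For 2 of 266 members the base mean in the authors' deposited table differs more than 2-fold from the mean of the deposited counts. These are rec6, with a base mean of 530 and a log2 fold change of 0.40 (adjusted p = 0.0237) in the authors' deposited table but 0 counts in every library, and meu1, with a base mean of 148 and a log2 fold change of 1.07 (adjusted p = 1.37e-06) in the authors' deposited table but a mean count of 9. Over all features 222 of 6943 differ by that much, so the authors' deposited table was not made from exactly these counts for such features; the cause was not tested.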

How the data were processed

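RNA from 3 mutant and 3 wt cultures was sequenced as paired-end reads after oligo-dT selection, per the labels' protocols. Raw counts for each transcript identifier were deposited by the authors; HISAT2, HTSeq and DESeq2 and the build ASM294v2 are named per the submitters' processing notes. Neither the annotation release nor the strand setting is given in the sources used here. The log2 fold changes, p-values and base means (a normalized signal averaged over libraries) of the deposited DESeq2 table are the authors', per the file headers, and were only set beside the results; 18 columns of deposited normalized values were not used.

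Names, classes, lengths, overlaps and distances came from the RefSeq annotation of assembly ASM294v3, to which 6848 of 7269 identifiers matched. Since the builds differ in name, no coordinates are given. The members, the gene lists and the groups by role were chosen with earlier results of these data known, and no test was made on them as lists.

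Genotypes were compared with edgeR 4.0.16 by quasi-likelihood (R 4.3.3; robust, TMM, filterByExpr with minimum count 10 and minimum total 15) on all 7269 features, of which 4941 were tested. Benjamini-Hochberg adjustment ran over these 4941, and a gene was called under 0.05. CPM are the deposited counts over TMM-scaled library sizes. The median log2 levels per library used a pseudocount of 0.5 CPM. Each edgeR p-value sets the difference between genotypes against the spread between libraries of a genotype, estimated in part from all tested features. With the number of clones not given, it does not cover differences between clones. The fit was tested on simulated counts.

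Named genes were csi1, sad1, the called members, the 2 genes nearest to each gap on each side, the 6 largest positive and 6 largest negative log2 fold changes at 5 CPM or more on average, and the 3 members of highest CPM per kb. The other genes named (by role, by size of change, in the lists, in the gaps or as neighbours) were chosen after their values were seen.

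Alternatives were DESeq2 size factors, library size alone, no filter, a filter of 5 CPM in 3 libraries, coding genes alone, replicate number as a block, DESeq2 1.42.0, limma 3.58.1 voom, each library left out, wt replicate 2 and mutant replicate 3 left out together, whole genes within 100 kb, a window of 200 kb, and members without opposite-strand overlap.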

Additional observations from a re-analysis of the deposited data

Results flagged for a closer look

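A non-coding feature annotated as centromere proximal inside the gap of chromosome III, SPNCRNA.1172, lies outside the coding genes compared above and had more counts in the mutant: 17, 12 and 9, against 4, 4 and 4 in wt. It averaged 0.606 CPM in the mutant and 0.213 CPM in wt, too few counts to pass the filter, so it was not tested. It was picked, among 18 gap features with any count, because every mutant library lay above every wt library. Another gap feature, SPNCRNA.360 on chromosome II, went the other way. It had 0, 1 and 0 counts in the mutant and 2, 1 and 2 in wt, and every mutant CPM lay below every wt CPM.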

How the results depend on the processing

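Members called higher numbered 2. They numbered 0 to 3 when single libraries were left out, 20 (and 16 lower) without wt replicate 2 and mutant replicate 3 together, and 8 (and 10 lower) with DESeq2. Calls over all features moved too: 119 in the edgeR fit of all libraries, 1025 without both libraries and 499 with DESeq2. The libraries left out together stood apart from their genotype in these same counts, and the cause of the moves was not tested. Members above wt in every library numbered 22 to 41, and below 56 to 79, with 1 library left out, and 59 and 99 with both left out, where fewer values must separate. With total counts alone they numbered 40 and 17, in the 200 kb window, which holds more genes, 50 and 81, and without opposite-strand overlap, with fewer genes, 25 were below. Shares over all features were not computed with libraries left out or with total counts alone, so those counts cannot be set beside them. For the other 2 settings the shares stay at 16.7% above and 13.8% below. Total counts alone turned all medians positive: 0.062 over members, 0.057, 0.046 and 0.082 at centromeres I, II and III, and 0.025, 0.062 and 0.11 by distance, under a shift of 0.13 in all features. The 25-50 kb median was −0.074 with DESeq2 size factors, −0.037 with the stricter filter and with coding genes alone, −0.082 with DESeq2 and −0.076 without both libraries; the member median with coding genes alone was −0.037. Leaving out 1 library gave medians of −0.083 to −0.042 over members, −0.099 to −0.026, −0.097 to −0.055 and −0.059 to −0.026 by centromere, and −0.12 to −0.087, −0.067 to −0.030 and −0.078 to −0.0042 by distance.

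The replicate numbers did not pair the libraries: deviations of same-numbered libraries correlated at 0.44, −0.49 and −0.54, and 2 of 6 libraries correlated best with their own number. With the number as a replicate block, 0 members were called higher and 0 lower (18 and 23 at an unadjusted p under 0.05 with edgeR), as were 0 of all 4941 features (845 at an unadjusted p under 0.05), sad1 and csi1 included (adjusted p = 0.0767 for each), and all medians stayed negative.

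Few counts limit the features inside the gaps, and members listed at 0 or overlapped by other features were measured in part or not at all.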
